A study of Mus musculus with 2 samples.

Results

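Barcodes with few mitochondrial transcripts were examined in the single-cell transcriptomes of mouse AE9a leukemia cells. A barcode was counted as low-mitochondrial when it held at least 500 detected genes and less than 2% of its UMIs (unique molecular identifiers, each standing for 1 captured RNA molecule) came from the genes of the mitochondrial genome. There were 313 such barcodes among the 7047 with at least 500 genes in the library labelled Usp18+/f (oil), and 61 among 7648 in the library labelled Usp18+/Δ (tamoxifen). They were set against the barcodes of the same library at 2 to 10% mitochondrial UMIs, called comparison barcodes here, of which there were 6573 and 7345. The members were chosen by their mitochondrial share and their number of genes, so their low mitochondrial level is a description and not a finding.

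AE9a leukemia is an acute myeloid leukemia that is driven by a truncated AML1/ETO fusion. The leukemia cells of both groups were Usp18+/f and carried a Cre recombinase that tamoxifen switches on, and they had been transplanted into recipient mice. The recipients received oil, which leaves the floxed allele in place, or tamoxifen, which is meant to delete 1 allele of Usp18, a brake on interferon signaling. On day 3 after the first injection GFP+ Lin- c-Kit+ splenocytes were sorted, the cells of 3 mice were pooled per group, and each pool gave 1 library with 8000 cells targeted. Because a group is a single library, no spread between replicates could be measured and nothing was tested, and each interval given is a 95% interval that covers counting error only.

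Transcripts of the mitochondrial genome lie inside the organelle in the cytoplasm, whereas pre-rRNA and many long noncoding RNAs, such as Malat1, Neat1 and Xist, stay in the nucleus. The share of mitochondrial UMIs is therefore used as a quality measure in droplet data, mostly to remove barcodes with a high share. Barcodes with an unusually low share can hold small cells, nuclei, fragments of cells or free RNA, and what the present barcodes held was not tested. They are therefore called barcodes and not cells.

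The libraries held 63690481 UMIs over 7281 barcodes (oil) and 65146263 UMIs over 7833 barcodes (tamoxifen), of which the low-mitochondrial barcodes held 391740 and 93914. In this material 3 UMIs amounted to 7.73 CPM and 32.3 CPM, where CPM are UMIs per 1000000 non-mitochondrial UMIs, so that the rule itself could not raise the other genes. Over the comparison barcodes Usp18 had 353 UMIs (6.06 CPM) in the library labelled oil and 1519 UMIs (25.5 CPM) in the library labelled tamoxifen, which goes against the label, and the groups are therefore named by their labels throughout. Usp18 is itself an interferon-induced gene, and over the same barcodes the interferon-stimulated gene Isg15 was higher in the library labelled tamoxifen by a log2 ratio of 2.43 (2.35 to 2.52). The low-mitochondrial barcodes held 1 Usp18 UMI in each library. The libraries shared 15 barcode sequences, and 1 of these was low-mitochondrial in at least 1 library. Kit, the receptor used for the sort, was detected at 142 CPM against 103 CPM in the comparison barcodes (oil) and at 151 CPM against 110 CPM (tamoxifen).

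The members are marked by Rpgrip1, AY036118, Gm42418 and the mitochondrial gene mt-Nd6. Poly(dT) capture can start at runs of A inside a transcript as well as at its tail, so the stretch of 30 bases around the longest A run of each marker is shown, together with Lars2, a gene that moved with them. They were read from the GRCm38 (mm10) genome along the GENCODE vM21 transcript, 5′ to 3′ on the gene's own strand, with the A run in capitals.
Rpgrip1, chr14:52160929-52160958 (+), 3′ UTR in exon 25 of 25: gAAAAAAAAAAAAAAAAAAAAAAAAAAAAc
Lars2, chr9:123374062-123374091 (+), exon 2 of 2 of a noncoding transcript: accaccattAAAAAAAAAAAtcccaaaaaa
Gm42418, chr17:39847155-39847184 (+), noncoding exon: gcgtttactttgAAAAAAttagagtgttca
AY036118, chr17:39847361-39847390 (-), noncoding exon: ttcttgattaatgAAAAcattcttggcaaa
mt-Nd6, chrM:13992-14021 (-), coding sequence: ttgggttagcattAAAgccttcacctattt
The longest runs were 28 bases in Rpgrip1, 11 in Lars2, 6 in Gm42418, 4 in AY036118 and 3 in mt-Nd6. A run of 28 or more was held by 48 of the 6170 genes with transcript sequence that passed 20 CPM in the library labelled oil, or 0.778%. The other 3 markers had no long run, so a long A run was not common to the markers.

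The low-mitochondrial barcodes were shallow. In the library labelled oil they held a median of 1068 UMIs (quartiles 825 and 1428, range 606 to 6964), against 8886 UMIs in the comparison barcodes. The median was 1236 UMIs in the library labelled tamoxifen (quartiles 783 and 1894, range 650 to 6928), against 8181 in comparison barcodes. The median number of detected genes was 736 against 2968 (oil) and 802 against 2828 (tamoxifen). The barcodes of both classes thus hardly overlapped in depth: 246 of 313 members (78.6%) and 39 of 61 (63.9%) had under 1500 UMIs, as did 14 of 6573 comparison barcodes (0.213%) and 18 of 7345 (0.245%). Read the other way, most of the barcodes with 500 genes and under 1000 UMIs were low-mitochondrial. They made up 134 of 139 such barcodes (96.4%) in the library labelled oil and 23 of 30 (76.7%) in the library labelled tamoxifen. Under 1500 UMIs they made up 246 of 269 (91.4%) and 39 of 65, and under 2000 UMIs 281 of 319 (88.1%) and 46 of 136 (33.8%), so in the library labelled tamoxifen they were the majority up to 1500 UMIs but not up to 2000.

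**Figure D1:**
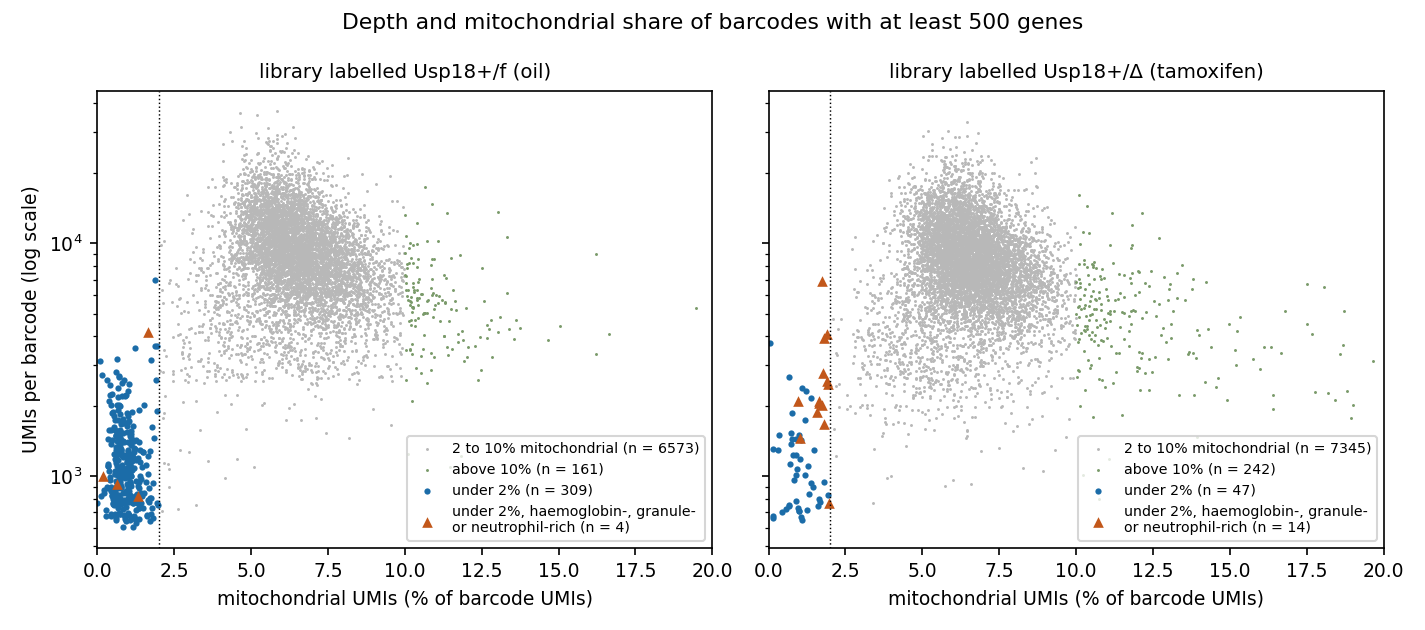
UMIs per barcode on a log scale against the percent of mitochondrial UMIs, for barcodes with at least 500 genes in the library labelled oil (left) and the library labelled tamoxifen (right). Each point is 1 barcode, triangles are members rich in haemoglobin, granule or neutrophil transcripts, the dotted line marks 2%, and barcodes above 20% lie outside the axis. The 313 and 61 barcodes left of the line sit mostly near 1000 UMIs, below the main body of the comparison barcodes.

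Gene number was also compared at equal depth. When each barcode was thinned at random to 500 UMIs, low-mitochondrial barcodes showed a median of 394 genes in both libraries, against 362 (oil) and 361 (tamoxifen) in comparison barcodes. With 500 non-mitochondrial UMIs drawn from each barcode the medians were 394 and 390, against 374 and 373. Comparison barcodes within the depth range of the members (10th to 90th percentile, 25 and 177 barcodes) had 388 and 369 genes at 500 UMIs, and 395 and 380 at 500 non-mitochondrial UMIs. The members' own mitochondrial shares had a median of 0.881% (oil) and 1.04% (tamoxifen), well inside the limit of 2%. Just inside the limit, at 1.75 to 2%, lay 12 and 9 barcodes with a median of 1548.5 and 2494 UMIs. Just outside it, at 2 to 2.25%, lay 14 and 7 barcodes with a median of 3058 and 3305 UMIs.

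Low-mitochondrial barcodes made up a larger share of the library labelled oil. They were 4.44% (interval 3.97 to 4.95) of its barcodes with 500 genes and 0.798% (0.611 to 1.02) of those of the library labelled tamoxifen, a log2 ratio of shares, tamoxifen over oil, of -2.48 (-2.87 to -2.09). The ratio lay between -2.89 and -1.92 under all limits on mitochondrial share, gene number and doublet score that were tried. The barcodes under 500 genes, which the rule leaves out, were divided in the same way: 99 of 234 (42.3%, 35.9 to 48.9) had under 2% mitochondrial UMIs in the library labelled oil and 19 of 185 (10.3%, 6.30 to 15.6) in the library labelled tamoxifen. Each share belongs to 1 pool and 1 capture, so that group, sort and library preparation cannot be told apart.

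The markers stood out by their share of a barcode's RNA. Rpgrip1 (ENSMUSG00000057132, chr14:52110704-52163546), which encodes a protein of the photoreceptor cilium, had 131 UMIs in the members of the library labelled oil, 338 CPM against 25.01 CPM in the comparison barcodes, a log2 ratio of 3.75 (3.49 to 4.01). The 26 UMIs of the library labelled tamoxifen came to 280.3 CPM against 21.5 CPM, a log2 ratio of 3.70 (3.08 to 4.26). Each ratio lay within the interval of the other library, but without the members rich in haemoglobin, granule or neutrophil transcripts (the rich barcodes) the library labelled tamoxifen had 4.36, outside that of the library labelled oil. Rpgrip1 was 1 of the 3 genes, of 6174 at 20 CPM or more in the library labelled oil, that had more UMIs per barcode in the members in spite of their low depth, 0.42 against 0.22. After thinning to 500 UMIs it was detected in 44 of 313 members (14.1%, 10.4 to 18.4) against 1.248% of comparison barcodes in the library labelled oil. The same share was 11 of 61 (18.03%, 9.36 to 29.98) against 0.953% in the library labelled tamoxifen. Without thinning the shares were 32.9% against 19.4% and 34.4% against 15.5%.

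Gm42418 and AY036118 are annotated on opposite strands of the same stretch of chromosome 17 (39846958 to 39848788 and 39847113 to 39848035) that resembles an rRNA repeat, so reads cannot be assigned to one of them with certainty. Gm42418 was the most abundant of the markers, at 6801 CPM against 1280.0 CPM in the library labelled oil, a log2 ratio of 2.41 (2.35 to 2.47). It was at 4247 CPM against 1573 CPM in the library labelled tamoxifen, 1.43 (1.29 to 1.58). AY036118 was at 1499.8 CPM against 214 CPM (2.81, 2.69 to 2.93) in the library labelled oil and at 884 CPM against 215 CPM (2.04, 1.71 to 2.35) in the library labelled tamoxifen. The number of molecules per barcode was not raised: AY036118 had 1.86 UMIs per member and 1.90 per comparison barcode (oil), and 1.34 and 1.75 (tamoxifen). Gm42418 had 8.43 and 11.35 (oil), and 6.46 and 12.77 (tamoxifen). The count of AY036118 per barcode was thus about the same in the library labelled oil, and the other 3 counts were lower in the members. At 500 UMIs, AY036118 was detected in 172 of 313 members (55.0%) against 10.1%, and in 21 of 61 (34.4%) against 10.4%.

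Lars2, which encodes the mitochondrial leucyl-tRNA synthetase and in mouse also holds rRNA-like sequence, was at 180.4 CPM against 39.0 CPM, a log2 ratio of 2.21 (1.84 to 2.55), in the library labelled oil. It was at 162 CPM against 46.4 CPM in the library labelled tamoxifen, 1.80 (0.96 to 2.53). Gm26917, a further rRNA-like locus on chromosome 17, had log2 ratios of 1.44 (1.26 to 1.62) and 0.48 (-0.05 to 0.96). The 4 measured rRNA-like loci thus had ratios above 0 in both libraries, although the interval of Gm26917 held 0 and Lars2 had -0.72 at a mitochondrial limit of 1% in the library labelled tamoxifen, with a median log2 ratio of 2.31 (oil) and 1.62 (tamoxifen). Against comparison barcodes of like depth, the 25 (oil) and 177 (tamoxifen) whose UMI number fell within the 10th to 90th percentile of the members, the medians were 0.52 and 0.73. For Gm42418 the log2 ratio was then 0.24 and 0.08, and for Rpgrip1 1.18 and 3.00. These barcodes of like depth were still deeper than the members, with medians of 1463 and 2173 UMIs, and their rRNA-like share was skewed, with a 95th percentile of 2.98% (oil) and 1.42% (tamoxifen). The median barcode held 0.847% of its UMIs in the rRNA-like loci among members and 0.380% at like depth (oil), and 0.541% and 0.323% (tamoxifen). Summed UMIs thus gave nearly equal levels of Gm42418, while the medians per barcode of the rRNA-like loci differed.

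Over all genes the composition of the members differed moderately from that of the comparison barcodes. Of 6174 genes at 20 CPM or more in the library labelled oil, 524 (8.49%) were at least 2-fold higher and 300 (4.86%) at least 2-fold lower, and the median log2 ratio was 0.12. Of 6222 genes in the library labelled tamoxifen, 806 (13%) were at least 2-fold higher and 663 (10.7%) lower, with a median of 0.07. Many of the latter rest on few UMIs. The floor was set on the mean of both classes, so a gene could pass through 1 class alone. Of the genes that passed, 295 (oil) and 481 (tamoxifen) were under 20 CPM in the comparison barcodes, and they gave 96 of the 524 and 340 of the 806 genes counted as higher. Those under 20 CPM in the members, 234 and 282, gave 97 of the 300 and 251 of the 663 counted as lower. The shares of all genes given beside the gene lists include these genes. Of 5657 genes that passed the floor in both, 103 were at least 2-fold higher in both, out of 435 and 470 that were so in each library, or 92 lower in both, out of 292 and 655. Across these genes, which are not independent replicates, Spearman's rho between the ratios of both libraries was 0.370.

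Besides the markers, the 12 genes that ranked highest in both libraries by their smaller ratio included 6 that are described first. Kif11, the kinesin that separates the spindle poles, was at 338 CPM against 133 CPM (log2 ratio 1.34) in the library labelled oil and at 377 CPM against 124 CPM (1.60) in the library labelled tamoxifen. Ranbp2, a large nucleoporin, was at 425 CPM against 135 CPM, 1.66, and had a ratio of 1.24 in the library labelled tamoxifen. Ncapg, a condensin subunit, had 1.56 and 1.18, and Diaph3, a formin that nucleates actin filaments, 1.19 and 1.49. The zinc finger gene Zfp638 had 1.35 and 1.18, and Trpm7, a cation channel with a kinase domain, 1.26 and 1.42. With at least 1000 genes per barcode, Kif11, Ranbp2 and Ncapg had -0.16, -0.18 and -1.49 in the library labelled tamoxifen, and against comparison barcodes of like depth Ncapg had 0.12 in the library labelled oil. The transcripts of these 6 genes are long, with summed exons between 5569 bases (Diaph3) and 15810 bases (Zfp638).

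For a pair of genes in the same ranking, the UMIs came wholly or in part from few barcodes. Lyz2, a lysozyme of myeloid cells, had 1 UMI in the members of the library labelled oil (log2 ratio 3.77, -1.66 to 6.55), and its 50 UMIs in the library labelled tamoxifen all came from 1 barcode. For Serpinb1a, a protease inhibitor, the log2 ratio was 1.82 (oil) and 4.62 (tamoxifen), but 32 of its 106 UMIs (oil) came from 1 barcode, and 109 of its 122 UMIs (tamoxifen) from barcodes rich in haemoglobin, granule or neutrophil transcripts. Without the rich barcodes its ratios were still 1.33 and 2.11. Thinned to 500 UMIs, its ratio in the library labelled oil was -0.42.

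The genes that ranked lowest in both libraries mostly had short transcripts. Rps2, a protein of the small ribosomal subunit with many near-identical pseudogenes (chr17:24718116-24721929), was at 2193 CPM against 5149 CPM, a log2 ratio of -1.23 (-1.33 to -1.13), in the library labelled oil. It was at 1897 CPM against 5512 CPM, -1.54 (-1.76 to -1.33), in the library labelled tamoxifen. Atox1, a copper chaperone, had -1.53 and -1.57, Npm3, a nucleoplasmin family chaperone, -1.51 and -1.54, and Lgals9, galectin-9, -1.44 and -1.44. Tango2 had -1.56 and -1.37, the ribosomal protein-like locus Gm10076 -1.35 and -1.90, Mrps26, of the mitochondrial ribosome, -1.41 and -1.30, and Lamtor5, of the lysosomal Ragulator complex, -1.24 and -1.30. Sapcd1 (-1.27 and -1.28), Gm15915 (-1.18 and -1.36) and the histone gene Hist1h2ap (-1.52 and -1.26) completed this side together with Cenpx (-1.17 and -2.89), a centromere protein with only 2 UMIs in the members of the library labelled tamoxifen. Against comparison barcodes of like depth Rps2 had -0.22 and -0.31, Npm3 -0.07 and 0.21, Gm10076 0.10 in the library labelled oil, and Hist1h2ap 0.47 in the library labelled tamoxifen, where it had 0.082 thinned to 500 UMIs. The low levels of these 4 genes were thus partly or wholly shared with barcodes of that depth in at least 1 library. Counts of Hist1h2ap and Gm10076 are uncertain because near-identical copies exist.

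Among the lists of genes, cell cycle genes of G2 and mitosis were often 2-fold higher in the library labelled oil. Of 50 measured, 23 were at least 2-fold higher and 0 lower, against 8.49% and 4.86% of all genes, and their median log2 ratio was 0.84. Mki67, the proliferation marker, was at 1758 CPM against 576 CPM (1.61), Cenpe, a kinetochore kinesin, at 466 CPM against 143 CPM (1.71) and Kif20b, a kinesin of cytokinesis, had 1.72. Cks1b, a short regulator of cyclin-dependent kinases, went the other way at -0.38. Of 49 measured in the library labelled tamoxifen, 4 were at least 2-fold higher and 3 lower, with a median of 0.35, against 13% and 10.7% of all genes. Mki67 was at 959 CPM against 535 CPM there (0.84). The median there was 1.04 when the 14 barcodes rich in haemoglobin, granule or neutrophil transcripts were left out, an alternative chosen after seeing the data.

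The same was seen barcode by barcode. The median member of the library labelled oil held 1.87% of its UMIs in the G2 and mitosis list, against 0.83% in comparison barcodes and 0.62% in those of like depth. These values were 1.39%, 0.66% and 0.25% in the library labelled tamoxifen. At 500 UMIs, Mki67 was detected in 154 of 313 members (49.2%) against 17.8%, and in 24 of 61 (39.3%) against 15.2%. Comparison barcodes of like depth thus held a smaller share of these genes than the members. For the DNA replication genes of S phase the median was 0.41 in the library labelled oil, with 9 of 43 at least 2-fold higher and 0 lower, against 8.49% and 4.86% of all genes. It was -0.25 in the library labelled tamoxifen, with 1 of 39 higher and 8 lower, against 13% and 10.7% of all genes, or 0.25 without the rich barcodes. At like depth the medians were 0.81 and 2.04 for G2 and mitosis and 1.06 and 1.56 for S phase, so both lists had a median above 0 against these somewhat deeper barcodes in both libraries. The barcodes of like depth differed in other RNA as well. Their median share was 0.336% and 0.667% for the granule genes, against 0.0752% and 0.138% in the members, 0.158% and 0.217% against 0.0670% and 0.104% for haemoglobin, and 1.73% and 2.04% against 0.904% and 0.847% for Malat1. The part of these differences in the cell cycle ratios was not tested. Pola1, the catalytic subunit of the priming polymerase, had 1.30 and 0.84.

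Genes of the nucleus other than the cell cycle had medians above 0, as did all genes, at 0.12 (oil) and 0.07 (tamoxifen). Of 28 chromatin regulators in the library labelled oil 9 were at least 2-fold higher and 0 lower, median 0.53, and of 29 in the library labelled tamoxifen 4 were higher and 0 lower, median 0.40. The share of 2-fold higher genes was thus above the 8.49% of all genes in the library labelled oil, and about the 13% of all genes in the library labelled tamoxifen. Smarca5, an ISWI ATPase, was at 1165 CPM against 488 CPM (1.26) in the library labelled oil and had 0.52 in the library labelled tamoxifen. Chd1, a chromatin remodeller, had 1.32 and 1.05, and Brd2, a bromodomain protein, -0.70 and -0.17. Nuclear pore and lamina genes, 22 in each library, had medians of 0.64, with 4 higher and 0 lower, and 0.11, with 1 higher and 3 lower, which is below the 13% and above the 10.7% of all genes. Lmnb1, lamin B1, had 1.55 and 0.69, and Tpr, of the nuclear basket, 1.15 and 0.53. Splicing genes had medians of 0.34 and 0.13. Of 28 in each library, 1 was at least 2-fold higher and 0 lower (oil), and 0 higher and 1 lower (tamoxifen). These shares were below those of all genes. In the library labelled tamoxifen the pore and lamina median and the splicing median were thus near that of all genes. Without the rich barcodes the medians there were 0.65 for chromatin regulators, 0.81 for pore and lamina genes and 0.43 for splicing genes. At like depth the chromatin regulators had medians of 0.27 and 0.17, the pore and lamina genes 0.50 and 0.90, and the splicing genes -0.02 and 0.01.

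Nuclear long noncoding RNAs did not move together. Xist, the RNA that coats the inactive X chromosome, had a log2 ratio of -0.65 (oil) and -0.93 (tamoxifen), whereas its antisense partner Tsix had 2.63 (131 UMIs) and 1.07 (11 UMIs). These genes overlap, so reads could be exchanged between them if strand was not used in counting. At 500 UMIs, Tsix was detected in 17.9% of members against 2.68% of comparison barcodes and in 13.1% against 2.53%, and Xist in 42.2% against 56.7% and in 27.9% against 55.5%. Malat1, of nuclear speckles, had 0.39 and 0.84. In the library labelled tamoxifen it was at 16040 CPM, or 11590 CPM without the rich barcodes, against 8969 CPM in comparison barcodes. Neat1, the scaffold of paraspeckles, had 0.37 and 1.53, and -0.46 in the library labelled tamoxifen without the rich barcodes. Over the 7 and 6 measured noncoding RNAs of this list the median was 0.37 and 0.19, and -0.83 and -0.35 at like depth. Without the rich barcodes the medians were 0.30 and -0.10, and at a limit of 1% 0.48 and -0.32. Nuclear-retained RNA as a group was therefore not uniformly raised.

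A list of genes with very long transcripts, chosen among membrane and cytoskeletal proteins, was higher with a median of 0.97 in the library labelled oil, 7 of 16 at least 2-fold higher and 0 lower, against 8.49% and 4.86% of all genes. The median was 0.46 in the library labelled tamoxifen, with 3 of 17 higher and 0 lower, against 13% and 10.7% of all genes. Against comparison barcodes of like depth the medians were 0.03 and -0.32. Vps13c, a lipid transfer protein, had 1.59 and 0.98, and Macf1, a linker of actin and microtubules, 1.44 and 0.74. Chaperones of the endoplasmic reticulum had medians of 0.63, 3 of 14 higher and 0 lower, and 0.31, 0 of 13 higher and 1 lower, beside the same shares of all genes. Without the rich barcodes the medians of the library labelled tamoxifen were 0.79 for the long transcripts and 0.76 for the chaperones. Hspa5, the main chaperone of that compartment, was at 593 CPM against 243 CPM (1.29) in the library labelled oil and had 0.96 in the library labelled tamoxifen, Hsp90b1 had 1.15 and 0.71, and Manf, a secreted factor of the same compartment with a short transcript, -0.65 and -0.19.

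Most genes of the cytosolic ribosome and of oxidative phosphorylation were lower. Of 79 genes of the cytosolic ribosome, 69 had a ratio below 0 in the library labelled oil and 78 in the library labelled tamoxifen, with medians of -0.32 and -0.57. Only 7 in each library were at least 2-fold lower and 0 higher, while 4.86% (oil) and 10.7% (tamoxifen) of all genes were 2-fold lower, so by this count the list was not above all genes in the library labelled tamoxifen. Without the rich barcodes the median of the library labelled tamoxifen was -0.34. Rps9 was at 1559 CPM against 4191 CPM (-1.43) in the library labelled oil and had -0.94 in the library labelled tamoxifen, whereas Rpl7a had 0.37 and -0.19. Of 74 nuclear genes of oxidative phosphorylation, 63 and 66 were below 0, with medians of -0.40 and -0.53, 9 and 19 at least 2-fold lower and 0 higher. Against comparison barcodes of like depth neither list was lower in both libraries: the medians were 0.23 and -0.15 for the cytosolic ribosome and 0.28 and -0.01 for oxidative phosphorylation. Gapdh, of glycolysis, was at 598 CPM against 1835 CPM (-1.62) in the library labelled oil and had -0.98 in the library labelled tamoxifen, while the 13 glycolysis genes had medians of -0.18 and 0.03. Cfl1, the actin-severing cofilin, was at 281 CPM against 733 CPM (-1.38) in the library labelled oil and at 334 CPM against 668 CPM in the library labelled tamoxifen. The 17 measured genes of the actin cytoskeleton had medians of -0.44, with 15 below 0, and 0.13, with 7 below 0, or -0.19 in the library labelled tamoxifen without the rich barcodes.

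**Figure D2:**
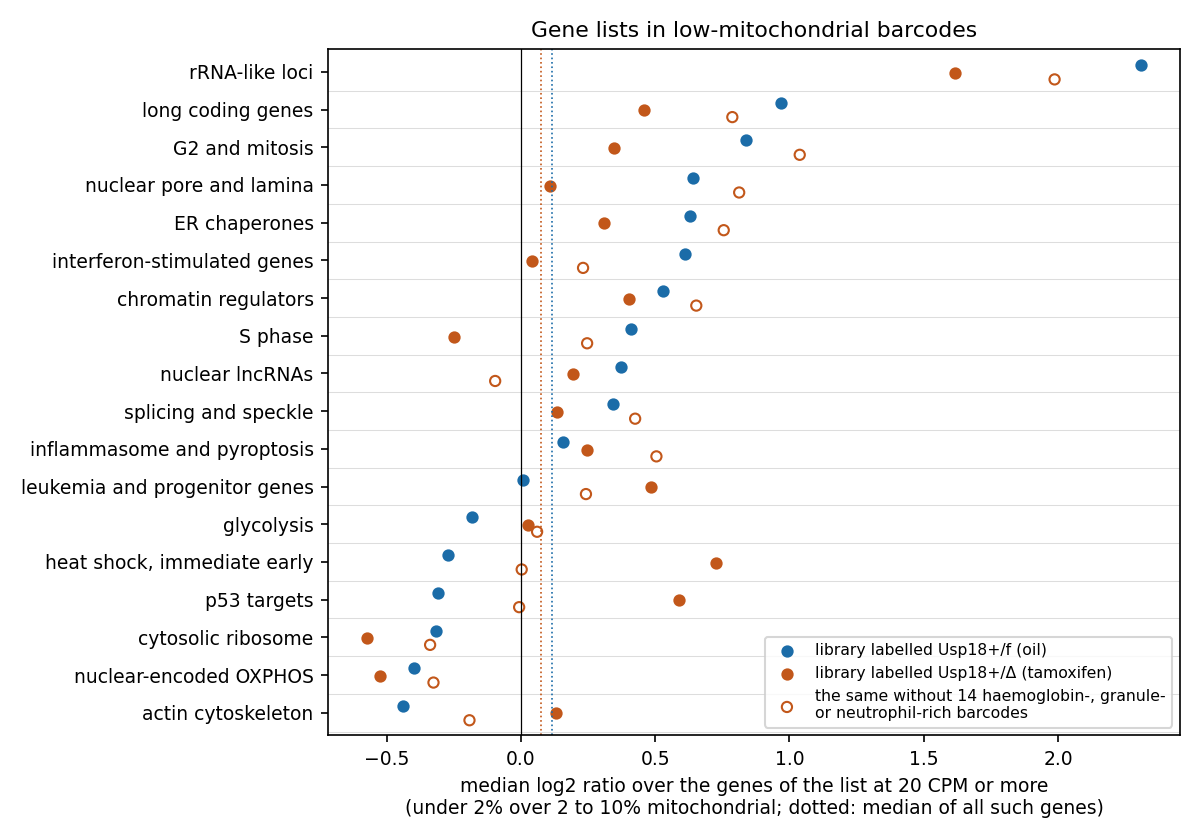
Median log2 ratio of low-mitochondrial over comparison barcodes for the gene lists drawn, each over its genes at 20 CPM or more, in the library labelled oil, the library labelled tamoxifen, and the latter without the rich barcodes. Granule protease and cell type lists are not drawn. Dotted lines mark the median of all such genes (0.12 and 0.07). Among the lists drawn, the rRNA-like loci lie furthest to the right at 2.31 and 1.62, and the cytosolic ribosome and oxidative phosphorylation lie left of 0 in every set.

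Genes of leukemia cell identity were detected in the members of both libraries. Of 16 measured in the library labelled oil, 8 were higher and 8 lower, with a median of 0.01, and -0.85 at like depth. Of these, 3 were at least 2-fold higher and 0 lower, against 8.49% and 4.86% of all genes. Of 18 in the library labelled tamoxifen, 14 were higher and 4 lower, with a median of 0.49, 0.24 without the rich barcodes and 0.03 at like depth. Of these, 5 were at least 2-fold higher and 1 lower, against 13% and 10.7% of all genes. Kit had 0.46 in both. At 500 UMIs, Kit was detected in 24 of 313 members (7.67%) against 4.79%, and in 4 of 61 (6.56%) against 5.83%. Itga4 and Itgb1, the chains of the integrin VLA-4, were at 371 CPM against 167 CPM (1.15) and 624 CPM against 304 CPM (1.03) in the library labelled oil. They were at 226 CPM against 170 CPM (0.42) and 464 CPM against 294 CPM (0.66) in the library labelled tamoxifen. At 500 UMIs Itga4 was detected in 16.3% of members against 6.95% (oil) and in 8.20% against 7.99% (tamoxifen). Itgb1 was detected in 27.5% against 13.0% and in 23.0% against 12.7%. Oil barcodes with 500 genes, under 1500 UMIs and at least 2% mitochondrial UMIs had ratios of 1.08 (8 UMIs) and 1.30 (17 UMIs). Ratios of this size were thus not particular to the members. Of the genes of pyroptosis, an inflammatory form of cell death, 10 and 12 were measured, with medians of 0.16 and 0.25. The median was 0.50 in the library labelled tamoxifen without the rich barcodes. At like depth the medians were -0.25 (oil) and -0.28 (tamoxifen), so the sign changed in both libraries. In the library labelled oil 1 gene was at least 2-fold higher and 1 lower, against 8.49% and 4.86% of all genes. In the library labelled tamoxifen 3 were higher and 2 lower, against 13% and 10.7%. The lowest ratios of the list were -1.24 (oil) and -1.80 (tamoxifen). Gsdme, a gasdermin, had the highest ratio of the list in the library labelled oil, 1.91 with 28 UMIs. It had 4 UMIs and 1.12 (-0.76 to 2.48) in the library labelled tamoxifen.

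The levels changed stepwise along the mitochondrial share. In the library labelled oil the log2 ratio of Rpgrip1 to all comparison barcodes was 2.76 under 0.5% mitochondrial UMIs, 4.02 at 0.5 to 1%, 3.79 at 1 to 1.5%, 3.05 at 1.5 to 2%, 1.48 at 2 to 3%, 1.18 at 3 to 4% and 0.32 at 4 to 5%. Gm42418 gave 2.17, 2.41, 2.61, 2.16, 0.88, 0.53 and 0.01 over the same classes. Genes of G2 and mitosis, summed, gave 0.80, 0.67, 0.78 and 0.59 below 2% and 0.00, 0.21 and 0.17 from 2 to 5%. The excess of G2 and mitosis genes was thus mostly confined to the classes below 2% in this library, while that of Rpgrip1 and Gm42418 tapered off up to 5%. Rpgrip1 of the library labelled tamoxifen had 3.23, 4.67, 3.49 and 2.66 below 2% and 0.38 at 2 to 3%. G2 and mitosis genes had 0.27, 0.90 and 0.47 below 1.5% and -1.17 at 1.5 to 2%, the class in which haemoglobin and other erythroid genes had 4.58.

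**Figure D3:**
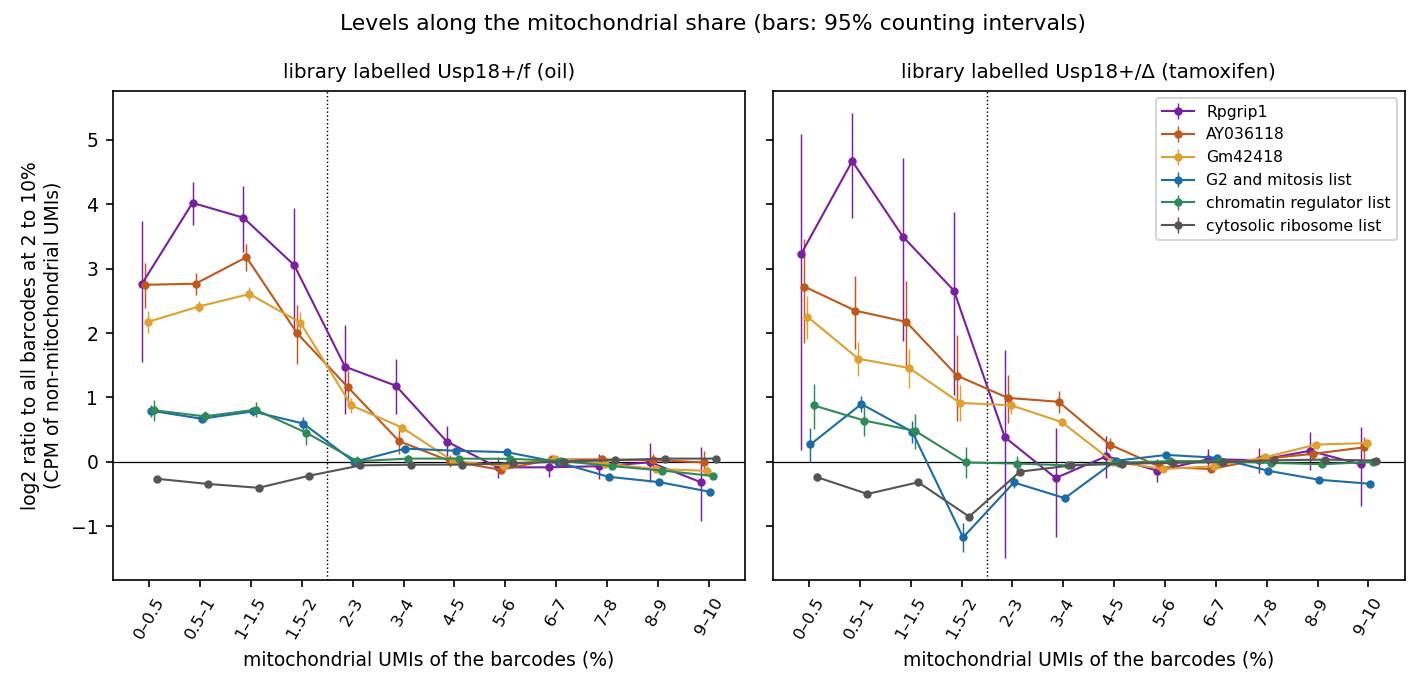
Log2 ratio to all barcodes at 2 to 10% mitochondrial UMIs (CPM of non-mitochondrial UMIs) by class of mitochondrial share, for the library labelled oil (left) and the library labelled tamoxifen (right). Lines stand for Rpgrip1, AY036118, Gm42418 and 3 summed lists, bars for 95% counting intervals, and the dotted line for 2%. Rpgrip1, AY036118 and Gm42418 are highest below 2% and approach 0 by 4 to 5%.

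Barcodes that met only 1 part of the rule were examined as well. The barcodes under 2% mitochondrial UMIs but with fewer than 500 genes (99 and 19, median 576 and 567 UMIs) had log2 ratios of 4.30 (3.70 to 4.84) and 4.12 (2.25 to 5.48) for Rpgrip1. Theirs were 1.78 and 1.66 for Mki67, 0.62 (0.53 to 0.71) and 0.57 (0.34 to 0.79) for the G2 and mitosis list, and -1.43 and -1.48 for Rps2. Those of the library labelled oil were close to the members on each of these. The members of the library labelled tamoxifen had lower ratios for Mki67 (0.84) and for the summed G2 and mitosis list (0.17, 0.08 to 0.26), but not without the rich barcodes (1.47, and 0.72, 0.63 to 0.81). Barcodes with at least 500 genes and under 1500 UMIs but at least 2% mitochondrial UMIs (23 and 26) had 2.92 and 2.28 for Gm42418, 2.37 and 1.75 for AY036118, 1.94 and 1.56 for mt-Nd6, and 3.14 (5 UMIs) and 0.75 (1 UMI) for Rpgrip1. They had 1.22 and 1.28 for the genes with very long transcripts and -1.22 and -1.61 for Rps2, so these shallow barcodes were near the members in most markers and in Rps2. Those of the library labelled tamoxifen also held macrophage genes (21 UMIs, a log2 ratio of 6.30) and erythroid genes (352 UMIs, 1.54, 1.39 to 1.69), whereas the library labelled oil had 0 UMIs and 0.43 (0.17 to 0.67), and the part of these in the ratios was not tested. For G2 and mitosis they had -0.26 (-0.46 to -0.07) and -1.25 (-1.52 to -0.99), for Malat1 1.44 and 1.74, and for Xist 1.39 and 1.34. Mki67 had 0.82 (0.16 to 1.40) and -1.08 (-2.39 to -0.04) there, and the S phase list -0.33 and -0.71. The summed G2 and mitosis list and Xist thus had opposite signs in these barcodes and in the members, Mki67 and the S phase list in 1 library each, and Gm42418 and the genes with very long transcripts in neither. Barcodes that met neither part of the rule (135 and 166) had 0.10 and -0.52 for G2 and mitosis and 1.05 and 0.18 for Mki67, with 1 and 33 UMIs of macrophage genes (7.85, 7.30 to 8.36, in the library labelled tamoxifen) and -1.09 and -1.32 for erythroid genes. The markers were high in them too, with 4.24 and 5.11 for Gm42418, 3.78 and 3.64 for AY036118, 6.62 and 7.22 for mt-Nd6, and 3.81 (5 UMIs) and 2.64 (2 UMIs) for Rpgrip1. High levels of the markers were thus not particular to barcodes under 2%.

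Long genes were favoured across the transcriptome. Split into 4 equal classes by summed exonic length, the genes of the library labelled oil had median log2 ratios of -0.24, 0.06, 0.22 and 0.44 from shortest to longest, and those of the library labelled tamoxifen -0.22, 0.01, 0.15 and 0.26. Of the shortest class in the library labelled oil, 2.59% were at least 2-fold higher and 11.1% lower, and of the longest 15.3% and 1.04%. Genes at least 2-fold higher had a median of 6831 exonic bases and those at least 2-fold lower 2391.5, against 4709 for all genes that passed. Across genes Spearman's rho of ratio and length was 0.395 (6173 genes, oil) and 0.196 (6221 genes, tamoxifen), as a description of genes that share libraries and depth. With at least 1000 genes per barcode rho was 0.244 and 0.0738. Against comparison barcodes of like depth rho was 0.0519 and -0.00686. The tilt towards long genes was thus not seen relative to barcodes of this depth range, where the 4 medians were -0.10, -0.07, -0.07 and -0.07 (oil) and -0.03, 0.15, 0.15 and -0.01 (tamoxifen), and the part of depth in it was not tested.

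**Figure D4:**
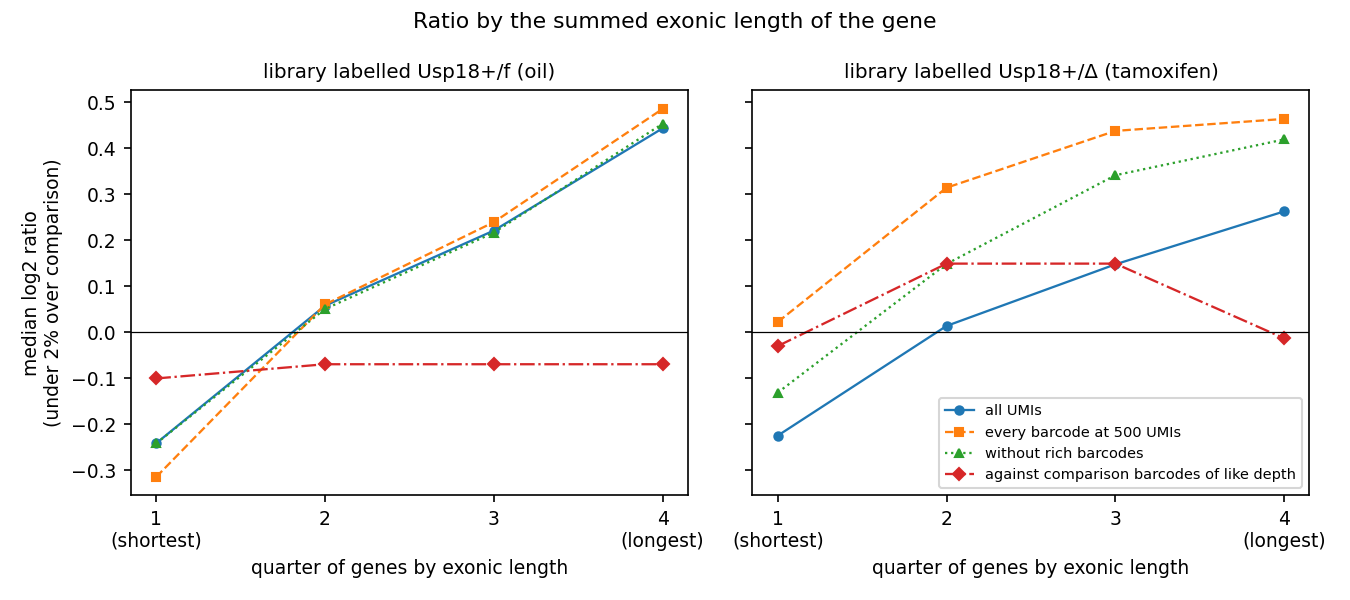
Median log2 ratio of low-mitochondrial over comparison barcodes for 4 equal classes of genes by summed exonic length, in the library labelled oil (left) and the library labelled tamoxifen (right). Lines stand for all UMIs, every barcode thinned to 500 UMIs, the members without rich barcodes, and comparison barcodes of like depth. The medians climb from -0.24 to 0.44 and from -0.22 to 0.26 against all comparison barcodes, and do not climb against those of like depth.

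The ratio did not rise steadily with the longest A run. Genes whose longest run was under 10 bases had a median log2 ratio of 0.08 (4349 genes, oil) and 0.04 (4393, tamoxifen), and those with runs of 20 or more 0.10 (229) and 0.06 (235). The classes between lay somewhat higher, with 0.23 and 0.15 for runs of 10 to 14 and 0.18 and 0.16 for runs of 15 to 19. Long intergenic noncoding RNAs took 2.503% of non-mitochondrial UMIs against 1.58% in comparison barcodes (oil) and 2.71% against 1.63% (tamoxifen). Most of the members' UMIs of this class came from Malat1 (4541 of 9714 and 1488 of 2511), Gm42418 (2639 and 394) and AY036118 (582 and 82). These shares therefore do not describe the class as a whole.

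The few mitochondrial UMIs that remained were composed differently. mt-Nd6, a subunit of complex I and the only protein gene that lies on the minus strand of the mitochondrial genome, made up 7.19% (6.37 to 8.07) of the mitochondrial UMIs of the members against 0.152% in comparison barcodes (oil), and 3.76% (2.73 to 5.03) against 0.160% (tamoxifen). The rich barcodes weighed on the value of the library labelled tamoxifen: leaving them out reduced its mitochondrial UMIs from 1144 to 516, of which 39, or 7.56% (5.43 to 10.2), were mt-Nd6. Per barcode its count was nearly the same in the library labelled oil, 0.847 against 0.917 UMIs, and lower in the library labelled tamoxifen, 0.705 against 0.896. It was detected at 500 UMIs in 87 of 313 members (27.8%) against 4.44%, and in 11 of 61 (18.03%) against 4.98%. Since the rule used the mitochondrial total, these values describe the selected barcodes.

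Some other mitochondrial genes had larger shares too. mt-Atp8, a subunit of the ATP synthase, was at 1.11% against 0.105% and 0.874% against 0.104% of mitochondrial UMIs, and mt-Nd4l, of complex I, at 1.63% against 0.190% and 0.612% against 0.182%. mt-Nd3 was at 2.98% against 0.868% and 1.22% (0.671 to 2.04) against 0.855%, the latter within its interval, and mt-Co1, of cytochrome c oxidase, at 20.6% against 15.8% and 27.4% against 16.3%. Without the rich barcodes mt-Co1 was at 17.8% (14.6 to 21.4) in the library labelled tamoxifen, an interval that holds the 16.3% of comparison barcodes. There mt-Nd3 was then at 2.33% (1.21 to 4.03), clear of 0.855%, and mt-Atp8 at 1.94% and mt-Nd4l at 0.969%. On the other side, mt-Atp6 was at 13.8% against 22.3% and 17.1% against 21.3%, mt-Cytb at 3.42% against 6.33% and 2.97% against 6.42%, and mt-Nd1 at 3.55% against 6.42% and 2.10% against 6.51%. The rule selects on the sum of these 13 genes and so mostly on the abundant ones, and these shares are a description of the selected barcodes.

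**Figure D5:**
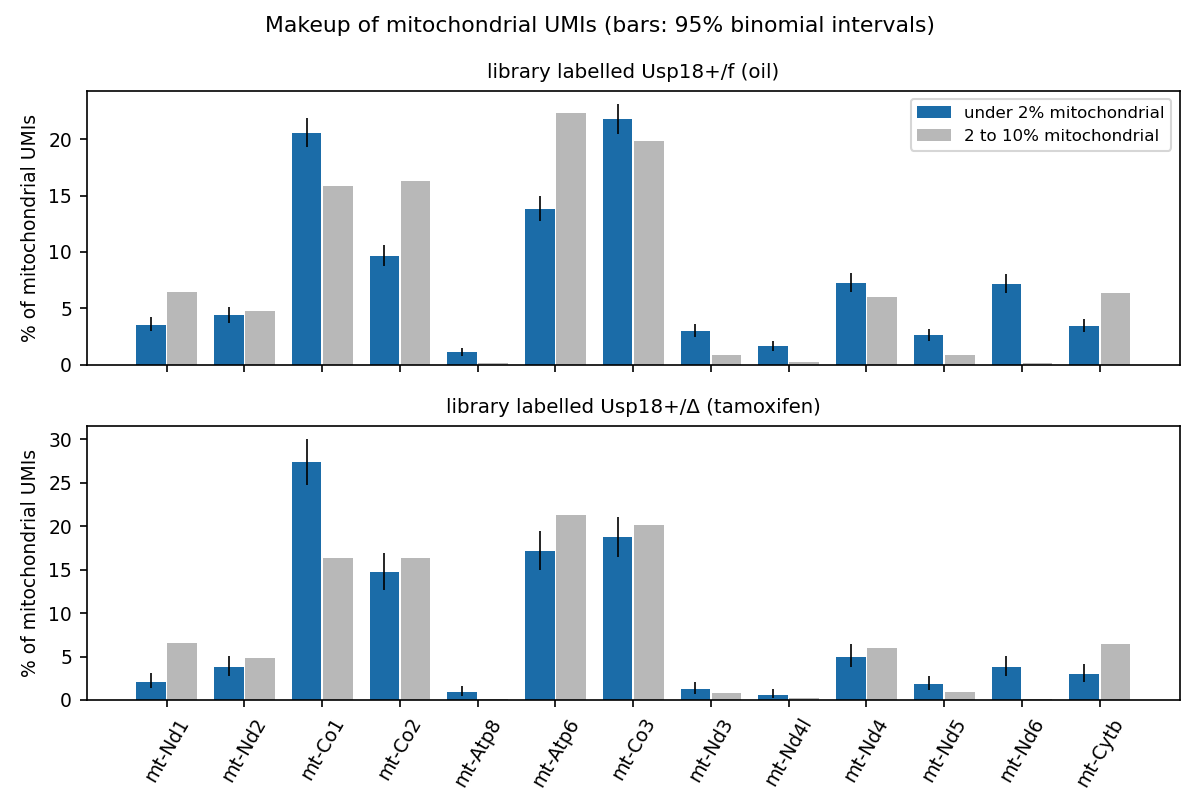
Share of each mitochondrial gene among all mitochondrial UMIs in low-mitochondrial and comparison barcodes, for the library labelled oil (top) and the library labelled tamoxifen (bottom). Bars give the percent, and error bars, drawn for the low-mitochondrial barcodes, 95% binomial intervals. mt-Nd6 is at 7.19% and 3.76% in the members against 0.152% and 0.160%, and at 7.56% in the library labelled tamoxifen without the rich barcodes, which are included in the bars.

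Markers of several other cell types were absent, and those of others were present. All 8 macrophage and all 8 B cell markers were at 0 UMIs in the members of both libraries, as were the 8 neutrophil markers in the library labelled oil, and T and NK cell markers had 3 and 0 UMIs and platelet markers 3 and 0. Macrophage and B cell markers were rare in comparison barcodes too, at 4.65 and 0.240 CPM (oil), so few UMIs could be seen at this depth. Of the 8 dendritic cell markers, 6 (oil) and 7 (tamoxifen) were at 0, and Bst2, which is also an interferon-stimulated gene, gave 89 of their 90 UMIs and all 22. Of the 8 endothelial and stromal markers, 6 and 7 were at 0, and the rest summed to 18 and 3 UMIs. Mast cell and basophil markers had 542 and 567 UMIs, with 3 and 1 of 8 at 0. As many as 14 of the 61 members of the library labelled tamoxifen (23.0%) were rich in haemoglobin, granule or neutrophil transcripts, against 644 of 7345 comparison barcodes (8.77%). Of these members, 13 were among the 33 at 1 to 2% mitochondrial UMIs and 1 among the 28 below 1%. In the library labelled oil 4 of 313 members (1.28%) were rich, against 554 of 6573 comparison barcodes (8.43%). One barcode of the library labelled tamoxifen held 1471 neutrophil-marker UMIs of its 3922, among them 592 of S100a9 and 313 of S100a8, although the sort was for lineage-negative cells. In another, haemoglobin made up 38.5% of UMIs. Erythroid markers summed to 1126 UMIs, a log2 ratio of -0.58, in the library labelled oil and to 4473 UMIs, 3.46, in the library labelled tamoxifen, where the ratio without the rich barcodes was -1.56. Since rich members were left out by their haemoglobin and rich comparison barcodes were kept, that lower ratio follows from the choice. The members of the library labelled tamoxifen are thus of more than 1 kind.

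The libraries were last compared within the members. Of 815 genes at 200 CPM or more, 63 (7.73%) were at least 2-fold higher in the library labelled tamoxifen and 37 (4.54%) lower, with a median log2 ratio of -0.20. Interferon-stimulated genes had 466 UMIs (1201 CPM) in the library labelled oil and 305 UMIs (3288 CPM) in the library labelled tamoxifen, a log2 ratio of 1.45 (1.24 to 1.66). Without the rich barcodes it was 0.96 (0.67 to 1.24), and over the comparison barcodes it was 1.09. The members thus showed the interferon difference of the deeper barcodes. Without the rich members the ratio was not above that of the comparison barcodes, which kept their own rich barcodes. Isg15, a ubiquitin-like protein that Usp18 removes from targets, had 6 and 9 UMIs in the members, a log2 ratio of 2.65 that rests on these 15 UMIs. Of the 114 UMIs of the interferon-stimulated gene Ifi27l2a in the library labelled tamoxifen, 104 came from rich barcodes.

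The G2 and mitosis list was lower in the library labelled tamoxifen by a log2 ratio of -0.74 (-0.83 to -0.65) within the members, -0.21 (-0.30 to -0.11) without the rich barcodes, and -0.20 over the comparison barcodes. Cdk1, the kinase of mitotic entry, had 123 and 8 UMIs (-1.88, -3.12 to -0.85). The S phase list had -0.70, -0.11 without the rich barcodes and 0.00 over the comparison barcodes. The p53 targets had 1.17 (0.81 to 1.53), 0.72 without the rich barcodes and 0.46 over the comparison barcodes, and Cdkn1a, a cell cycle inhibitor induced by p53, had 4 and 11 UMIs, of which 2 remained without the rich barcodes. Each of these 3 ratios was thus nearer to 0 without the rich barcodes, 4 in the library labelled oil and 14 in the library labelled tamoxifen.

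The heat shock genes Hspa1a and Hspa1b, near-identical copies whose UMIs were added up, had 32 and 8 UMIs in the members, 82.5 and 86.2 CPM, a log2 ratio of 0.06 (-1.26 to 1.21). Over the comparison barcodes they were at 232 and 47.9 CPM, -2.28 (-2.33 to -2.22). The large difference between the libraries in these genes was thus not seen in the members, whose interval does not reach that value. Kit did not differ beyond counting error (55 and 14 UMIs, 0.09), and Cd34, the stem and progenitor antigen, had 4 and 1 UMIs, too few to compare.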

How the data were processed

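UMIs were measured in 2 single-cell libraries, 1 per group. The deposited files hold raw UMI counts per gene and barcode, which the authors made with Cell Ranger 3.0.2 and mm10 from 10x Genomics 3′ V3 libraries. The strand setting and later cell filters are not given in the sources used here. Counts were summed over the barcodes of each class and scaled to CPM of non-mitochondrial UMIs. Ratios carry exact conditional Poisson intervals, shares Clopper-Pearson intervals, and the ratio of 2 shares a score interval, at 95% and for counting error only. Thinning drew 500 UMIs without replacement. The functions were tested on simulated data. Doublets were kept. An alternative left out barcodes above the 95th percentile of Scrublet scores (scanpy 1.11.5, rate 6%). Rich barcodes exceeded the 95th percentile of comparison barcodes in haemoglobin or granule share with at least 5 UMIs, or held at least 10 neutrophil-marker UMIs. Lists were summarised over genes with a mean of 20 CPM.

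Named genes were the markers, up to 4 examples a list, and the 12 highest and 12 lowest by the smaller ratio of both libraries at a mean of 100 CPM. A class at 0 UMIs entered at 3 where this fixed the direction, and had no ratio elsewhere. Examples that are in no such place were chosen after their values were seen. Gene models were GENCODE vM21, to which 31011 of 31053 genes matched and 30934 had transcript sequence. Python 3.11.15, numpy 2.4.6, scipy 1.17.1, pandas 2.3.3 and matplotlib 3.10.9 were used. The members, markers and lists were chosen with earlier results of these data known. Alternatives varied the limits, depth, doublets, scaling and comparison barcodes.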

Additional observations from a re-analysis of the deposited data

Results flagged for a closer look

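For 7 gene lists, the sum over the list was higher in low-mitochondrial than in comparison barcodes in one library and lower in the other, and each difference was not tested because each group is 1 library. Erythroid markers had a log2 ratio of -0.58 in the library labelled oil and 3.46 in the library labelled tamoxifen, and granule protease genes -0.93 and 1.23. Mast cell and basophil markers had -0.16 and 1.76. In the library labelled tamoxifen without its 14 rich barcodes, these 3 ratios were -1.56, -0.52 and 0.21. These members were left out by haemoglobin, granule or neutrophil transcripts and the comparison barcodes were kept, so that lower ratios follow from the choice.

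The DNA replication genes of S phase had 0.43 in the library labelled oil and -0.27 in the library labelled tamoxifen, p53 targets -0.38 and 0.33, actin cytoskeleton genes -0.24 and 0.14, and heat shock and immediate early genes 0.15 and -0.18. Without the rich barcodes the library labelled tamoxifen had 0.34, -0.12, -0.15 and 0.04 for these 4 lists. The interval held 0 for p53 targets (-0.57 to 0.29) and for heat shock and immediate early genes (-0.13 to 0.21), and it lay on the side of the library labelled oil for S phase (0.17 to 0.50) and actin (-0.28 to -0.02).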

How the results depend on the processing

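Of the alternative values of the main results, 55 stayed close to the main value and 32 moved further, and of those of named genes and lists 1076 stayed close and 199 moved further. The other sign was seen for 17 values, given below, which were 1 rank correlation and ratios that were at least 2-fold or had an interval clear of 0, and also for 67 medians of lists under 2-fold and 11 further values. Of these medians, 17 changed sign at like depth and 8 each at a limit of 1% and with at least 1000 genes. Alternatives that left out the rich barcodes or kept barcodes under 1500 UMIs only were chosen after seeing the data. No paired analysis was possible because the groups are 1 library each, with no second replicate to leave out. The causes of the changes were not tested.

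The log2 ratio of shares was -2.89 at a limit of 1%, -2.08 at 3%, -1.92 with at least 1000 genes and -2.83 without rich barcodes. At 3% the median UMIs were 1178 (oil) and 1894 (tamoxifen), and genes at 500 UMIs 384 (tamoxifen). Genes at least 2-fold higher in the library labelled oil were 142 at 3%, 845 thinned and 341 with median-of-ratios scaling. Genes at least 2-fold lower there were 49 at 3%, 484 with at least 1000 genes, 548 thinned and 1575 at like depth. In the library labelled tamoxifen, 1320 were higher at 1%, 399 at 3% and 1605 thinned, and 302 were lower at 3%, 395 thinned and 997 at like depth.

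Of these 17 values, those in the library labelled oil were Serpinb1a at -0.42 thinned, -0.0066 as a mean over barcodes and -2.66 at like depth, and Gm10076 at 0.10 at like depth. In the library labelled tamoxifen they were the granule protease median (-0.97 at 1%, -0.74 at like depth, -0.21 without rich barcodes), Lars2 (-0.72 at 1%), Kif11, Ranbp2 and Ncapg with at least 1000 genes (-0.16, -0.18 and -1.49), Hist1h2ap (0.082 thinned, 0.47 at like depth), Npm3 (0.21 at like depth), rho with length (-0.00686 at like depth), mast cell and basophil markers (-1.15 at like depth) and erythroid markers (-1.75 without rich barcodes).

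Within the members, the interferon ratio between the libraries was 0.81 at 1%, 2.23 with at least 1000 genes, 1.13 thinned, 1.02 as a mean over barcodes, 0.96 without rich barcodes and 0.67 under 1500 UMIs. The G2 and mitosis ratio was -0.15, -1.48, -0.36, -0.38, -0.21 and -0.12 in the same order, and -0.64 with median-of-ratios scaling. The 93914 UMIs of the members in the library labelled tamoxifen limit single genes: 3 UMIs there are 32.3 CPM.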
